A study of Mus musculus with 9 samples.

Results

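The comparison set gastric tumours taken 60 min after injection of either gp130 cytokine, interleukin 6 (IL6) or interleukin 11 (IL11), against gastric tumours taken 60 min after injection of vehicle (PBS). Its members were all 9 arrays of the series, 6 of tumours given a cytokine (3 IL6 and 3 IL11) and 3 of tumours given PBS, so that 9 of 9 arrays entered. Every mouse was homozygous for gp130Y575F, on a mixed 129/BL6 background and aged 6 to 8 weeks. The IL6 and IL11 mice received 5 µg of the recombinant human cytokine in 200 µl PBS by 1 intraperitoneal injection, and the PBS mice 200 µl of PBS alone. Each array holds the RNA of 1 tumour-bearing mouse on an Illumina mouse bead array, and no unmutated mouse, normal stomach or uninjected tumour belongs to the comparison.

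IL6 and IL11 each bind a receptor of their own (IL6RA or IL11RA) and then recruit the shared subunit gp130, the product of Il6st. gp130 carries Janus kinases, which phosphorylate tyrosines on its tail. The transcription factor STAT3 docks there, is phosphorylated, and enters the nucleus within minutes to switch on its targets. Among the earliest is Socs3, whose protein binds unmutated gp130 and dampens the signal. Every mouse here carries the mutant receptor, named as the labels spell it, so feedback on unmutated gp130 was not measured. In the stomach the pathway is known for driving growth of the mucous epithelium and inflammation-associated tumours. A tumour taken 60 min after the injection can hold transcripts of this first wave, beside those already present in all of its cell types.

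The comparison asked which transcripts differed between the mean of the 6 cytokine arrays and that of the 3 PBS arrays. Passing a threshold on this pooled mean does not require passing it with each cytokine. Of 45281 probes, 18925 were detected on at least 3 of the 9 arrays and stood for 13001 genes. In limma, 54 genes passed an adjusted p of 0.05 for cytokine minus PBS and are called here. Of these, 45 rose (0.346% of genes tested) and 9 fell (0.0692% of genes tested), and the median change of all genes was -0.03 on the log2 scale. The rises ran from 0.84 to 2.73 (1.79- to 6.64-fold) and the falls from -0.87 to -1.72. At an unadjusted p under 0.05 the numbers were nearly even, with 1350 genes higher and 1384 lower. Quantile normalization gives every array the same distribution of signals, so an even split is no measure of the balance of the response. Under median scaling 81.8% of genes lay above 0, with a median of 0.30.

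The 3 PBS arrays were less alike than the cytokine arrays, and this bears on every result. The median SD of a gene was 0.22 over IL6 arrays, 0.18 over IL11 arrays and 0.33 over PBS arrays. On the first principal component (42.7% of the variance) the 6 cytokine arrays spanned -22.5 to -6.21. PBS replicate 1 lay among them at -13.3, PBS replicate 2 at 73.5 and PBS replicate 3 at 37.8. Ighm, the heavy chain of IgM and a B cell marker, had log2 signals between 4.58 and 5.41 on cytokine arrays, and 5.31, 13.39 and 5.75 on PBS arrays. Krt14, a keratin of squamous epithelium, had 11.21 on IL11 replicate 3 and between 6.74 and 7.78 on the other cytokine arrays, against 7.25, 6.98 and 14.18 on PBS arrays. In bulk tissue, fewer cells of a type and less RNA per cell cannot be told apart.

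The gastric label was checked against markers. Gkn1, Gkn2, Gkn3 and Tff2, secreted products of gastric mucous cells, had log2 signals between 13.54 and 14.52 on all 9 arrays, and 7 of the 8 surface mucous markers tested were detected on every array. Muc5ac, the mucin of surface mucous cells, spanned 5.81 (IL6 replicate 2) to 10.80 (IL11 replicate 1) on cytokine arrays, and had 7.76, 10.94 and 4.91 on PBS arrays. No marker of enteric neurons and glia (0 of 7 on the array) passed the detection filter.

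**Figure D1:**
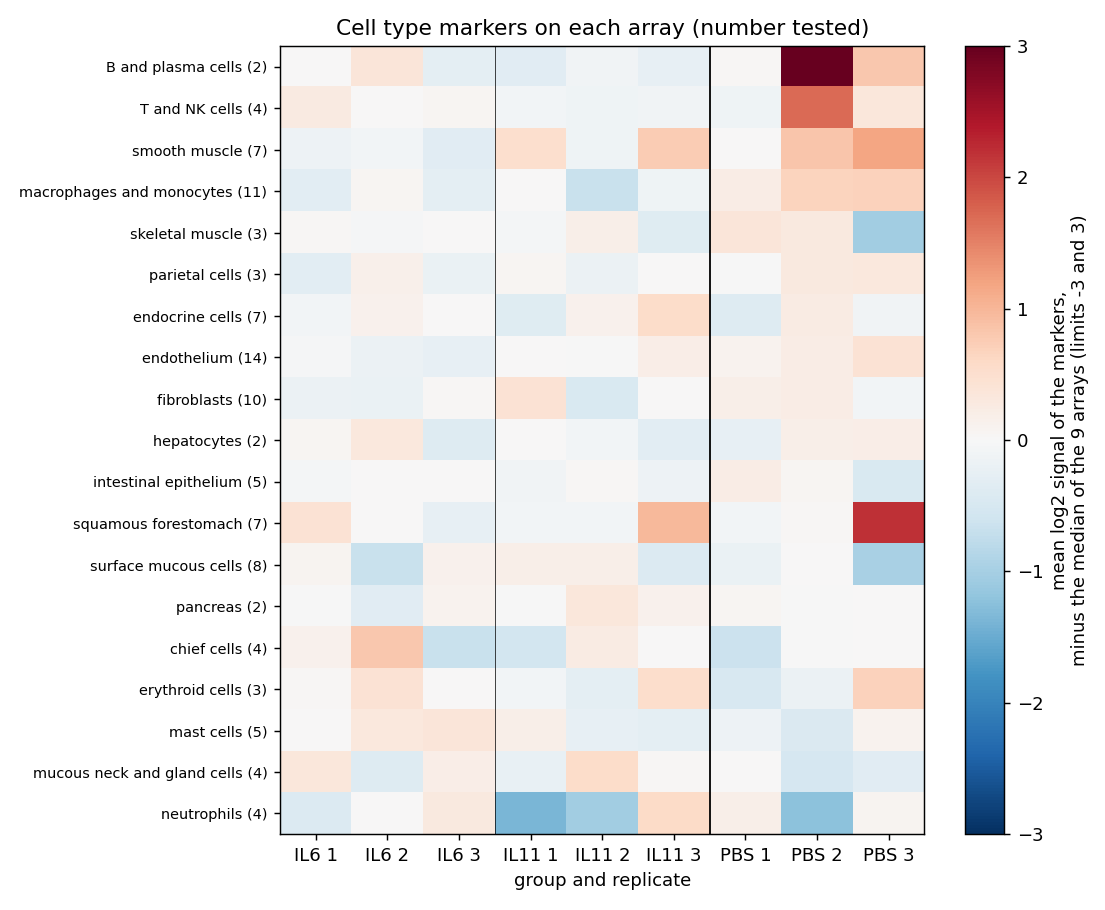
Mean log2 signal of each cell type's markers on each array, minus the median of the 9 arrays, with IL6 and IL11 arrays left of the PBS arrays and the number of markers tested in brackets. B and plasma cell markers stand out on PBS replicate 2 and squamous forestomach markers on PBS replicate 3, while PBS replicate 1 resembles the cytokine arrays.

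Results are therefore also given with PBS replicate 1 as the only control, where that single array is assumed to vary like the others. All 54 called genes kept their direction. The median rise of the 45 genes was 1.52 with all 3 controls and 1.33 with PBS replicate 1 alone, and the median fall of the 9 genes was -1.05 and -0.98. PBS replicate 1 was the control nearest to, or tied for nearest to, the cytokine arrays for 28 of the 45 rises and 6 of the 9 falls. The size was smaller with PBS replicate 1 alone for 38 of the 45 rises and 6 of the 9 falls. It was larger for Gpr146 and the transcript LOC100045680, whose lowest control was PBS replicate 1. Gpr146 had 5.05, 6.49 and 5.72 on PBS arrays, and changed by 1.70 with all controls and 2.40 with PBS replicate 1. On that array it lay below the lowest detected signal (5.27), and its further probes gave 0.13 and 1.94 with all controls. LOC100045680 had 6.55, 7.29 and 7.42, and changed by 1.12 and 1.66. With each array left out in turn, 19 rises and 1 fall stayed past the threshold in all 9 fits.

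Promoter sequence is shown for 5 rises because a STAT or heat shock motif could be marked in it. RefSeq promoters (GRCm38.p6, 250 bases before to 50 after each start) matched 32 of the 45 rises with 49 promoters, and 7 of the 9 falls with 13 promoters. The STAT motif TTCNNNGAA, which reads the same on both strands, was found in at least 1 promoter of 12 of the 32 rises (37.5%) and 1 of the 7 falls (14.3%). Among all tested genes with a promoter it was found for 728 of 8722 (8.35%), and in 8.30% of all 32851 promoters. A match is a description of letters and not a binding site, and some starts of a gene overlap. The 250 bases before the start follow, 5′ to 3′ on the gene's strand. Capitals mark TTCNNNGAA in the first 4 and the heat shock motifs TTCNNGAA or GAANNTTC in Hsph1.
Socs3 (chr11:117969367-117969616, minus strand): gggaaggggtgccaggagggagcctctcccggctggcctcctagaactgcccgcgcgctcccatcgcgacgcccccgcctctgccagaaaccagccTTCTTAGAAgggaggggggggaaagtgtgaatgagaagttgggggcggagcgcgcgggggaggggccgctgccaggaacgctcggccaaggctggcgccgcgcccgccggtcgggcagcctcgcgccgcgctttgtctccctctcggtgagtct
Icam1 (chr9:21015690-21015939, plus strand): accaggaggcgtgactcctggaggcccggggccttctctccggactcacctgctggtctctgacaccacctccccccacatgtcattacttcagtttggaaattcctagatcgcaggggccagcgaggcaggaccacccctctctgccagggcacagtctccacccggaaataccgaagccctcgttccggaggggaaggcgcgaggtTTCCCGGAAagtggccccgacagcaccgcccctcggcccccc
Bcl6 (chr16:23981284-23981533, minus strand): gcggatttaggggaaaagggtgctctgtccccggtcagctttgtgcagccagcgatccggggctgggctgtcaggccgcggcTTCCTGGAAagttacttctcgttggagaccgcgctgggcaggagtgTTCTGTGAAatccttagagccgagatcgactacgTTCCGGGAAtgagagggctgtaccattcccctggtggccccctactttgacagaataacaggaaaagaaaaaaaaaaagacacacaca
Trim15 (chr17:36867188-36867437, minus strand): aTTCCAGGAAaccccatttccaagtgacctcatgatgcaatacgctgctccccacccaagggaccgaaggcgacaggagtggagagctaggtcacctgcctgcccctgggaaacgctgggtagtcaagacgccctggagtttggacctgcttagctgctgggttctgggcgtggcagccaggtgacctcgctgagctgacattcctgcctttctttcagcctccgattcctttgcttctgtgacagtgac
Hsph1 (chr5:149636316-149636565, minus strand): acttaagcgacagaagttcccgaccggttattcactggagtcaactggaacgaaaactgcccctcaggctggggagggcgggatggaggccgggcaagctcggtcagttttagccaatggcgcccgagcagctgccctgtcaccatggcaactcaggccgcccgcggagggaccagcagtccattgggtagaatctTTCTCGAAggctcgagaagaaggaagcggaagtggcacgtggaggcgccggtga

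Counted from the start, the STAT motif begins at position -154 from the start of Socs3, -42 from that of Icam1 and -249 from that of Trim15. Bcl6 has 3 copies before the start shown, at -168, -122 and -88, and 1 copy at -118 from another start. Among the other rises with the motif were Zfp36, Stn1, Prok1, Sbno2, Lipe and Tnip2. In Hsph1 the marked copy begins at -54. The heat shock motifs, which can overlap one another, were found for 5 of the 32 rises (15.6%) and for 14% of tested genes with a promoter. They were found for 13 of 21 matched genes of the heat shock list.

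Transcript of Socs3, whose protein dampens the signal of unmutated gp130, rose. Its log2 signals were 13.79, 13.93 and 13.98 on IL6 arrays, 13.41, 13.37 and 13.50 on IL11 arrays, and 12.22, 11.64 and 10.88 on PBS arrays. All 6 cytokine arrays lay above all PBS arrays, and the change was 2.08 (SE 0.27, 4.24-fold, limma adjusted p = 0.00783). Osmr, the receptor subunit that joins gp130 to bind oncostatin M, rose with it. It had 10.43, 9.92 and 10.60 with IL6, 10.05, 10.33 and 10.28 with IL11, and 8.99, 8.42 and 7.96 with PBS, again without overlap (change 1.81, SE 0.23, limma adjusted p = 0.00689). None of the 54 called genes overlapped between the groups, against 4.55% of all genes tested that lay higher on every cytokine array and 4.91% that lay lower. Every gene without overlap, called or not, has the same p in an exact permutation test of 6 arrays against 3. That p, 2 times the smallest one-sided value over 84 arrangements, is 0.0238. It adds no support to calls made on the same arrays.

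Of the cytokine machinery itself (IL6 family ligands, receptors, Janus kinases, STATs and the inhibitor Socs3), 2 of 23 members tested rose, Socs3 and Osmr, and none fell. The median change was 0.23, and 0.05 with PBS replicate 1 alone. Jak2, a Janus kinase that gp130 uses, had 9.64, 9.71 and 10.05 with IL6, 9.55, 9.53 and 9.72 with IL11, and 9.05, 8.93 and 8.93 with PBS. Those groups did not overlap, but its change of 0.73 missed the threshold (SE 0.15, limma adjusted p = 0.0618). Stat3, the factor itself and one of its own targets, had a change of 0.67 (limma adjusted p = 0.117), which was 0.29 against PBS replicate 1 alone. Il6st itself stood at 0.30 (0.237), Jak1 at 0.56 (0.224), Il6ra at -0.32 (0.388) and Il11ra1 at -0.51 (0.183), with the limma adjusted p in brackets. The last 2 values change sign under another scaling or control, Il6ra under median scaling and Il11ra1 with PBS replicate 1 alone. Further probes also differed. One of Jak1, detected on 3 arrays, gave -0.53, and one of Il11ra1, detected on 9, gave 0.10. Those of Il6ra gave 0.04 and -0.21, those of Stat3 0.26 and 0.42, and that of Jak2 0.39.

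STAT3 feedback genes and direct targets held 9 of the called rises among 45 tested members and none of the falls. Beside this and every other list stands the share over all 13001 genes, 0.346% called as rises and 0.0692% as falls. The list and the other lists named here were compiled with earlier results of these arrays known, so the counts describe them and are no independent evidence. Of the 45 members, 39 lay above 0 with a median of 0.77, against 6097 of 13001 genes and a median of -0.03 for all genes. With PBS replicate 1 alone 33 lay above 0 and the median was 0.33, against -0.01 for all genes. The 9 were Socs3, Osmr, Icam1, Pim3, Gadd45g, Bcl3, Bcl6, Reg3a and Lbp.

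Icam1 encodes the adhesion molecule that leukocyte integrins bind. It had 11.18, 10.89 and 10.76 with IL6, 10.55, 10.64 and 10.45 with IL11, and 8.99, 8.26 and 8.77 with PBS. The lowest cytokine array lay over 1 log2 unit above the highest control, and the change was 2.07 (SE 0.21, limma adjusted p = 0.00347). Pim3, a serine/threonine kinase that promotes survival, had 13.36, 13.24 and 13.38 with IL6, 12.83, 13.16 and 13.01 with IL11, and 11.63, 10.93 and 10.79 with PBS (change 2.05, SE 0.21, limma adjusted p = 0.00347). Its relative Pim1 did not pass, with a change of 0.49 (limma adjusted p = 0.338) and groups that overlapped.

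Gadd45g, a stress- and cytokine-induced activator of a mitogen-activated kinase cascade, was one of the 3 largest rises. It had 13.25, 13.56 and 13.65 with IL6, 12.78, 13.07 and 12.93 with IL11, and 11.41, 10.31 and 11.10 with PBS, a change of 2.26 (SE 0.27, 4.80-fold, limma adjusted p = 0.00682). A second probe of the gene gave 2.63. Bcl3, an IκB family protein that acts in the nucleus with NF-κB subunits, had 10.41, 10.07 and 9.90 with IL6, 9.81, 10.02 and 9.53 with IL11, and 8.67, 8.15 and 7.98 with PBS (change 1.69, SE 0.21, limma adjusted p = 0.00689). Bcl6, a transcriptional repressor, changed by 1.71 (limma adjusted p = 0.0105). It lay between 10.35 and 10.84 on cytokine arrays and between 8.25 and 9.31 on PBS arrays.

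Reg3a and Lbp were the 2 secreted defence proteins called. Reg3a, a C-type lectin of the gut epithelium, had 7.82, 6.38 and 7.56 with IL6, 7.30, 7.64 and 8.20 with IL11, and 5.43, 4.60 and 4.87 with PBS. It was detected on all 6 cytokine arrays and on 1 of 3 PBS arrays, so the change of 2.51 (SE 0.35, limma adjusted p = 0.0134) rests on controls near background and was 0.83 with the authors' deposited values. Lbp, which binds bacterial lipopolysaccharide, had 9.40, 8.47 and 9.22 with IL6, 9.48, 9.43 and 9.96 with IL11, and 7.87, 7.87 and 7.68 with PBS (change 1.52, SE 0.26, limma adjusted p = 0.0455). The call of Lbp held in 2 of the 9 fits without 1 array. Reg3g, the antibacterial relative of Reg3a, had 13.13, 12.48 and 12.96 with IL6, 13.01, 13.18 and 13.50 with IL11, and 12.41, 7.88 and 10.85 with PBS. Its change of 2.66 did not pass (SE 0.73, limma adjusted p = 0.110), and against PBS replicate 1 alone it was 0.63. Over the 18 acute phase and secreted defence genes tested, 2 rose, none fell, 9 lay above 0 and the median was -0.04.

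For several textbook STAT3 or growth factor targets that did not pass, the value depended on which controls were used. Cebpd, a transcription factor of the acute phase, had values between 8.23 and 8.74 on cytokine arrays and 8.39, 4.67 and 8.27 on PBS arrays. The cytokine range held PBS replicates 1 and 3, and the change of 1.45 (limma adjusted p = 0.243) was 0.23 without PBS replicate 2. Fos, an immediate early transcription factor, had 11.83 to 12.17 on cytokine arrays, 11.86 on PBS replicate 1 and at most 10.47 on the other 2 PBS arrays. Its change was 1.18 (limma adjusted p = 0.109) and 0.09 against PBS replicate 1 alone. With each array left out in turn, the change of Fos ran from 0.79 to 1.72. Egr1, induced by growth factor signalling, stood at 0.69 (limma adjusted p = 0.235) with all controls and at -0.17 with PBS replicate 1 alone. It ran from 0.30 to 1.11 with each array left out in turn.

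Others kept more of their size. Cebpb, a partner of Cebpd, had 12.79, 12.37 and 12.48 with IL6, 12.21, 12.49 and 11.99 with IL11, and 11.62, 11.46 and 11.19 with PBS, without overlap. Its change was 0.96 (SE 0.18, limma adjusted p = 0.0587) and 0.77 with PBS replicate 1 alone. None of the next 3 passed either. Il4ra, a receptor chain of interleukin 4, stood at 1.51 (limma adjusted p = 0.0850) with detection on all 6 cytokine arrays and 1 of 3 PBS arrays, Junb at 0.90 (0.122) and Myc at 0.50 (0.238).

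Of 29 immediate early genes tested, 2 rose (Gadd45g and Zfp36) and none fell, with a median of 0.41 that was 0.14 with PBS replicate 1 alone. Zfp36 encodes tristetraprolin, which binds AU-rich mRNAs and speeds their decay. It had 12.03, 11.89 and 11.91 with IL6, 11.34, 11.38 and 11.36 with IL11, and 10.61, 10.18 and 10.01 with PBS. The 3 groups formed separate steps, with a pooled change of 1.38 (SE 0.21, limma adjusted p = 0.0251) and an IL6 minus IL11 difference of 0.58 (95% interval 0.17 to 0.98). Of 20 NF-κB targets, Icam1 and Bcl3 rose, none fell, and the median was 0.09. Tnfaip3, an inhibitor of NF-κB, had a change of 1.47 with all controls and -0.11 with PBS replicate 1 alone (limma adjusted p = 0.183 with all controls).

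**Figure D2:**
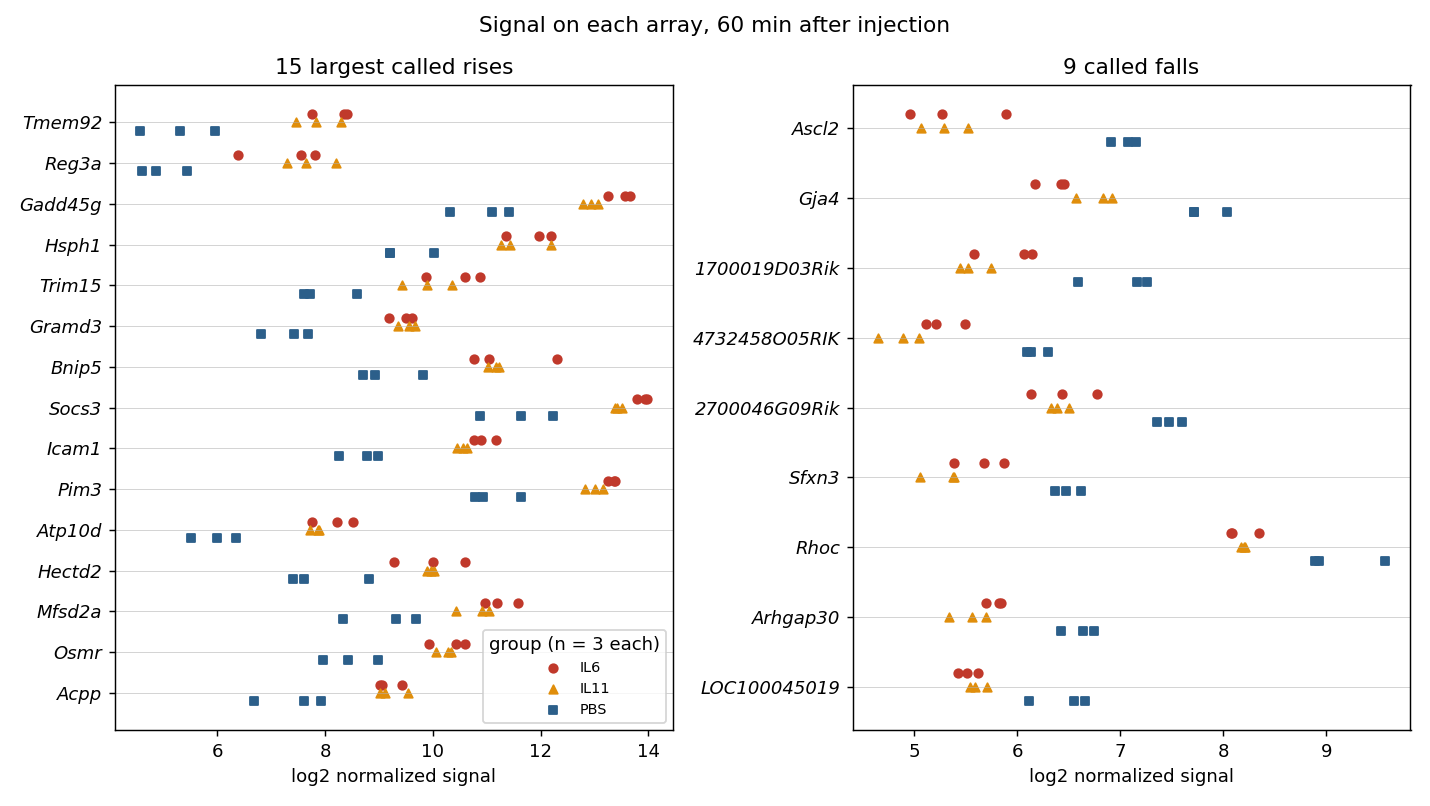
Log2 normalized signal on each array (horizontal axis) for the 15 largest called rises and the 9 called falls, with IL6 circles above IL11 triangles above PBS squares (n = 3 each). The 6 cytokine values of every gene lie on one side of its 3 PBS values.

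The largest rise was that of Tmem92, a transmembrane protein. It had 7.75, 8.35 and 8.40 with IL6, 7.46, 7.84 and 8.30 with IL11, and 5.96, 4.57 and 5.31 with PBS, where 2 of 3 arrays detected it. The change was 2.73 (SE 0.31, 6.64-fold, limma adjusted p = 0.00567), and 2.05 against PBS replicate 1. With the authors' deposited values it was 1.05. Gramd3, a GRAM domain protein, had the smallest adjusted p together with Tha1. It had 9.19, 9.50 and 9.62 with IL6, 9.36, 9.56 and 9.67 with IL11, and 7.68, 6.82 and 7.42 with PBS. The cytokines could not be ordered in it, and the change was 2.17 (SE 0.20, limma adjusted p = 0.00247).

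Others of the 15 largest rises follow. Atp10d, a P4-type ATPase, had 8.22, 7.75 and 8.51 with IL6, 7.72, 7.88 and 7.87 with IL11, and 6.35, 6.00 and 5.52 with PBS (change 2.04, limma adjusted p = 0.00567). Mfsd2a, which carries lysophosphatidylcholine into cells, had 11.58, 10.97 and 11.19 with IL6, 11.05, 10.91 and 10.42 with IL11, and 9.68, 9.32 and 8.33 with PBS (change 1.91, limma adjusted p = 0.0273). Acpp, an acid phosphatase, changed by 1.79 (0.0145) and Hectd2, a HECT domain protein of the ubiquitin ligase class, by 2.02 (0.0307). The call of Mfsd2a held in 3 and that of Hectd2 in 2 of the 9 fits without 1 array. Trim15, a RING finger protein, changed by 2.2 (limma adjusted p = 0.0203), with 10.59, 9.87 and 10.87 on IL6 arrays, 9.43, 10.36 and 9.89 on IL11 arrays, and 8.59, 7.60 and 7.72 on PBS arrays. Bnip5 changed by 2.11 (0.0273).

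Some rises were neighbours on the chromosome. In the RefSeq order of protein-coding genes (GRCm38.p6) 3 pairs of called rises adjoined each other: Tha1 and Socs3, Trim15 and Trim10, and Tnip2 and Sh3bp2. Tha1, a threonine aldolase chosen here after its values were seen, had 10.61, 10.45 and 10.77 with IL6, 10.44, 10.60 and 10.64 with IL11, and 8.91, 8.53 and 9.12 with PBS. Its change was 1.73 (SE 0.16, limma adjusted p = 0.00247), and 1.68 against PBS replicate 1. Trim10, also chosen after its values were seen, had values from 6.50 to 7.69 on cytokine arrays and from 5.40 to 5.84 on PBS arrays, a change of 1.51 (0.0455). Sh3bp2, a signalling adaptor, changed by 1.32 (0.00682), and Tnip2, an NF-κB inhibitor, by 0.85 (0.0469), with the limma adjusted p in brackets. A second probe of Tnip2, detected on 8 arrays, gave 0.02. The call of Tnip2 held in 1 of the 9 fits without 1 array, and that of Trim10 in 2.

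Other rises outside the naming rule are given by their size, having been chosen after their values were seen. Sting1, the adaptor of cytosolic DNA sensing, changed by 1.42 and Tlr4, the lipopolysaccharide receptor, by 0.84. Sbno2, a transcriptional coregulator, changed by 1.67 and Stn1, a telomere-binding protein, by 1.61. Lipe, the hormone-sensitive lipase, changed by 1.35, the ligand gene Prok1 by 1.35 (detected on all 6 cytokine arrays and 1 of 3 PBS arrays), the neurotrophin gene Bdnf by 0.98 and Cdkn2d, an inhibitor of cyclin-dependent kinases, by 1.21. Their limma adjusted p values lay between 0.00682 (Sting1) and 0.0493 (Lipe). The call of Sting1 held in all 9 fits without 1 array, that of Stn1 in 8 and that of Sbno2 in 3. The calls of Lipe, Prok1 and Cdkn2d each held in 2 of the 9, and those of Tlr4 and Bdnf in 1. Pde12, an exonuclease of mitochondrial poly(A) tails that the rule named, changed by 1.63 (SE 0.17, limma adjusted p = 0.00517), with 10.27, 10.10 and 10.47 on IL6 arrays, 10.01, 9.73 and 9.88 on IL11 arrays, and 8.58, 8.43 and 8.34 on PBS arrays.

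Of 27 heat shock genes tested 1 rose and none fell. That gene was Hsph1, an exchange factor of the Hsp70 chaperones, with 11.96, 11.36 and 12.20 on IL6 arrays, 11.43, 12.19 and 11.27 on IL11 arrays, and 10.02, 9.20 and 9.20 on PBS arrays. The cytokine arrays lay above all controls without order between IL6 and IL11 (change 2.26, SE 0.28, 4.78-fold, limma adjusted p = 0.00682). All 27 members lay above 0 with a median of 0.59, against 46.9% of all genes above 0. With PBS replicate 1 alone 23 of 27 lay above 0, with a median of 0.53. Chordc1, a cochaperone of Hsp90, had 11.49, 11.31 and 12.06 with IL6, 11.22, 11.66 and 11.11 with IL11, and 10.45, 10.73 and 9.81 with PBS, a change of 1.14 that did not pass (limma adjusted p = 0.0690).

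For other chaperones the pooled mean joined cytokine groups that lay apart. Hspa1a, the inducible Hsp70, had 12.83, 12.17 and 12.17 with IL6, 7.67, 9.14 and 8.71 with IL11, and 9.09, 7.90 and 7.10 with PBS. Only the IL6 arrays stood apart in Hspa1a, and IL6 minus IL11 was 3.88 (95% interval 2.73 to 5.03, limma adjusted p = 0.245). Dnajb1, an Hsp40 cochaperone, had 13.47, 13.37 and 13.39 with IL6, 12.24, 12.19 and 12.43 with IL11, and 11.50, 11.30 and 11.21 with PBS. The 3 groups formed 3 steps, with a pooled change of 1.51 (limma adjusted p = 0.0690) and an IL6 minus IL11 difference of 1.12 (95% interval 0.77 to 1.47, limma adjusted p = 0.245). Hspa1a and Hspa1b are near-identical copies, and their probes may share transcripts.

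Chaperones of the endoplasmic reticulum lay above 0 with smaller sizes. Of 18 genes of the unfolded protein response tested, none passed in either direction, 15 lay above 0, and the median was 0.42, or 0.39 with PBS replicate 1 alone. Hspa5, the main chaperone of that compartment, had 7.44, 7.27 and 7.02 with IL6, 7.38, 7.46 and 6.95 with IL11, and 6.71, 4.98 and 5.56 with PBS. Its change was 1.5 (limma adjusted p = 0.0646), and 0.54 with PBS replicate 1 alone. Ddit3, the transcription factor CHOP, lay the other way at -0.56 (0.155).

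**Figure D3:**
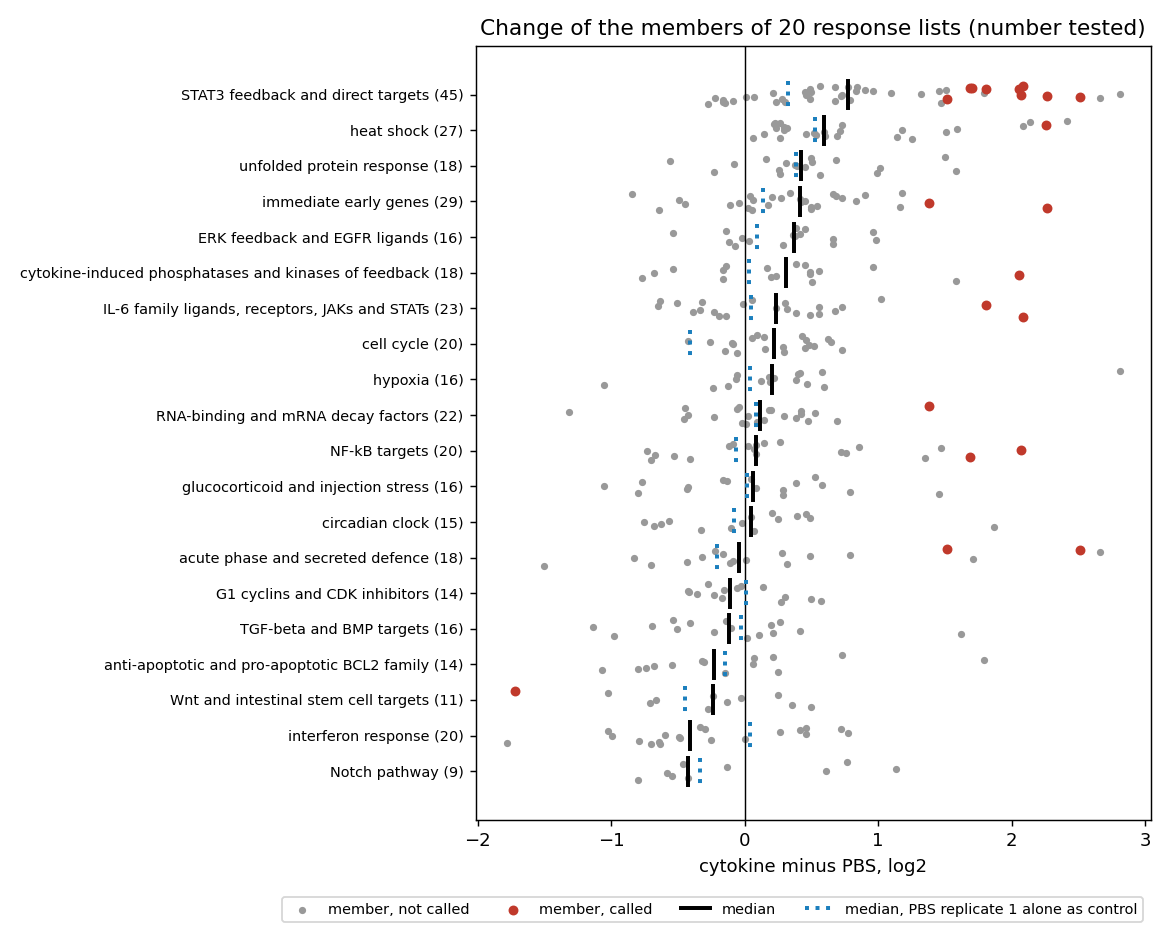
Change of each tested member of the 20 response lists for cytokine minus PBS (log2), with called members in red and black bars for list medians. The dotted bar is the median with PBS replicate 1 as the only control. STAT3 targets have the highest median with all controls (0.77) and heat shock genes with PBS replicate 1 alone (0.53).

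The falls were fewer. Ascl2, a transcription factor of intestinal stem cells and a target of Wnt signalling, fell most. It had 5.27, 5.89 and 4.96 with IL6, 5.52, 5.29 and 5.07 with IL11, and 7.15, 7.08 and 6.91 with PBS. The 3 controls lay close together above all cytokine arrays, and the change was -1.72 (SE 0.20, 0.304 of the PBS level, limma adjusted p = 0.00682). It was detected on 4 of the 6 cytokine arrays and on all controls. A second probe gave -1.01 (limma adjusted p = 0.0258 over all probes), PBS replicate 1 alone gave -1.82, and the authors' deposited values gave -0.52. Ascl2 was the fall that passed without each array in turn.

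The other Wnt and intestinal stem cell targets did not pass. Of 11 tested, Ascl2 fell, none rose, 8 lay below 0 and the median was -0.24, or -0.45 with PBS replicate 1 alone. Ephb3, an ephrin receptor, had 5.68, 5.35 and 5.81 with IL6, 5.35, 5.32 and 5.53 with IL11, and 6.23, 6.23 and 6.06 with PBS, a difference of -0.66 without overlap (limma adjusted p = 0.0778). Axin2, a negative regulator that Wnt signalling induces, had a change of -1.02 (0.151), and its groups overlapped. Among 9 genes of the Notch pathway none passed and the median was -0.43. Nrarp, a feedback inhibitor of Notch, stood at -0.80 (limma adjusted p = 0.0636), while the ligand gene Dll1 stood at 1.13 (0.113).

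Gja4 encodes a connexin of arterial endothelium. It had 6.45, 6.17 and 6.43 with IL6, 6.57, 6.83 and 6.92 with IL11, and 7.72, 7.72 and 8.04 with PBS (change -1.27, SE 0.18, limma adjusted p = 0.0173). Of 14 endothelial markers tested it was the 1 that passed, 5 of the 14 lay above 0, and their median was -0.24, or -0.09 with PBS replicate 1 alone. Their mean log2 signal ran from 7.93 to 8.37 on cytokine arrays and from 8.28 to 8.61 on PBS arrays, and its part in the fall of Gja4 was not tested. Sfxn3, a mitochondrial serine carrier, changed by -1.03 (0.0455) and Rhoc, a small GTPase, by -0.95 (0.0469). A second probe of Rhoc gave -0.07. Arhgap30, a GTPase-activating protein, changed by -0.95 (0.0281). The remaining called falls, with limma adjusted p in brackets, were the unnamed transcripts 1700019D03Rik at -1.25 (0.0390), 4732458O05RIK at -1.11 (0.0307), 2700046G09Rik at -1.05 (0.0203) and LOC100045019 at -0.87 (0.0395). Of the 6 cytokine arrays, 2 detected 4732458O05RIK and 5 detected Sfxn3. On cytokine arrays Sfxn3 (5.06 to 5.87) and Arhgap30 (5.34 to 5.84) lay near the lowest detected signals, 5.10 to 5.26. So did LOC100045019 (5.43 to 5.71), 4732458O05RIK (4.65 to 5.49) and Ascl2 (4.96 to 5.89). The calls of Sfxn3, Rhoc, 1700019D03Rik and 4732458O05RIK each held in 2 of the 9 fits without 1 array. That of LOC100045019 held in 1. Over the settings run, the smallest change was -0.27 for Sfxn3 and for Arhgap30, -0.51 for Rhoc and -0.58 for Gja4. For the unnamed transcripts it was -0.41, -0.26, -0.29 and -0.24, in the order given.

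Macrophage markers lay lower on cytokine arrays without passing. Of 11 tested none was called, 8 lay below 0 and the median was -0.93. Their mean log2 signal ran from 6.78 to 7.51 on cytokine arrays and was 7.66, 8.11 and 8.14 on PBS arrays, so that the groups did not overlap. With PBS replicate 1 alone the median was -0.57. C1qc, a complement component made by macrophages, had 6.68, 7.49 and 6.30 with IL6, 7.10, 5.81 and 7.16 with IL11, and 7.88, 9.05 and 8.46 with PBS (change -1.71, limma adjusted p = 0.0690). Interferon response genes had a median of -0.41 over 20 tested, none called, and 0.04 with PBS replicate 1 alone. Cxcl9, a chemokine induced by interferon gamma, stood at -1.78 (0.0690), and the part of immune cells in these values was not tested.

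Ddit4, an inhibitor of mTOR signalling that hypoxia and glucocorticoids induce, and Cirbp, a cold-inducible RNA-binding protein, were lower on every cytokine array without a pooled call. Ddit4 had 9.59, 8.92 and 9.44 with IL6, 9.69, 9.73 and 10.15 with IL11, and 10.65, 10.64 and 10.62 with PBS (change -1.05, limma adjusted p = 0.0690). Cirbp had 8.59, 9.55 and 9.08 with IL6, 7.79, 8.14 and 7.91 with IL11, and 9.63, 9.69 and 10.15 with PBS (change -1.31, limma adjusted p = 0.113). In Cirbp the IL6 arrays lay between the other groups, with IL6 minus IL11 at 1.13 (95% interval 0.55 to 1.71, limma adjusted p = 1.00). Bbc3, a pro-apoptotic protein, had a change of -1.07 (0.0800) in a list of 14 BCL2 family genes with no call.

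The last question was whether the size of the change differed between the cytokines. The 54 genes were called on the pooled mean and did not overlap between the groups, which fixes that their IL6 and IL11 changes have 1 direction. The change was larger with IL6 for 33 of the 45 rises and with IL11 for 12, where 50.7% of all genes tested lay higher with IL6 than with IL11. Among the falls it was larger with IL6 for 3 and with IL11 for 6. The direct test of IL6 minus IL11 had an unadjusted limma p under 0.05 for 7 of the 54, against 2.38% of all genes tested (309 of 13001), and no gene passed after adjustment (0%). The half-width of the 95% interval of IL6 minus IL11 had a median of 0.52 among the 54 and ran from 0.33 to 0.90.

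The 7 genes ran in both directions. Zfp36, Pde12 (0.40), Sh3bp2 (0.37) and Itpkc (0.43, an inositol trisphosphate kinase named after its value was seen) lay higher with IL6. Lbp lay higher with IL11, at -0.60 for IL6 minus IL11 (95% interval -1.18 to -0.02). For the falls, Gja4 lay lower with IL6 (-0.42) and 4732458O05RIK lower with IL11 (0.41). Hectd2 lay at 0.00 (-0.90 to 0.90), an interval that still allows a difference of either sign.

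**Figure D4:**
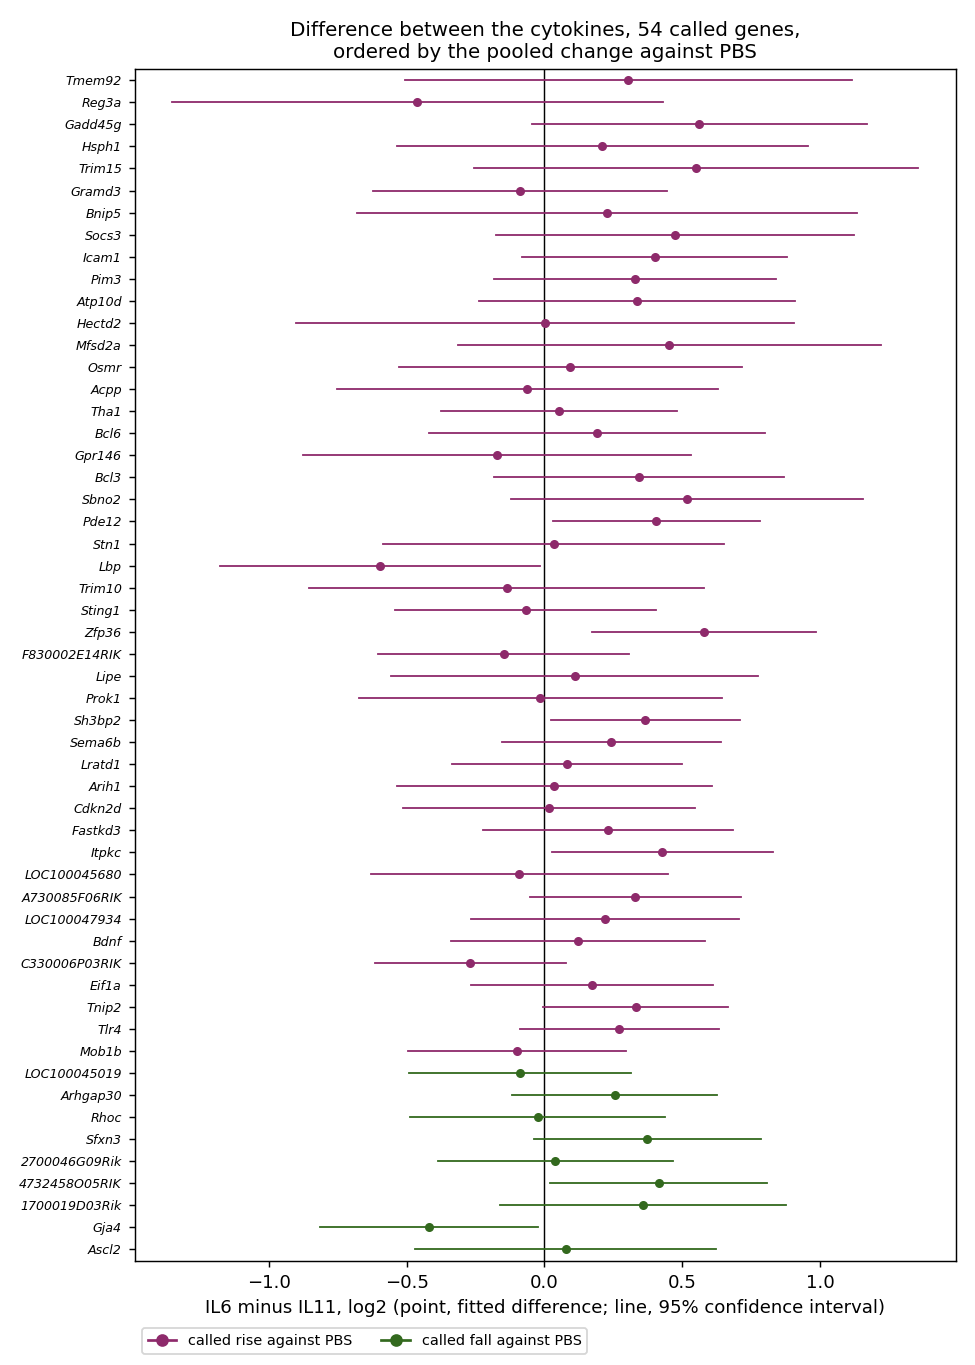
Fitted IL6 minus IL11 difference (log2) with its 95% confidence interval for the 54 called genes, ordered by the pooled change against PBS. The intervals of 7 genes do not reach 0, before any adjustment for the number of genes.

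Second probes gave a measure of the same genes on the same arrays. For 16 called genes 18 further probes were detected, of which 17 had the same sign, 8 passed the threshold over all probes, and 8 had under 50% of the size of the probe that stood for the gene. Hectd2 gave 1.85 on its second probe, Trim15 1.62, Trim10 1.04, Sbno2 1.12 and Pde12 1.39. Against these stood 0.19 for a dim second probe of Gramd3 and 0.02 for that of Tnip2. The second probe of 2700046G09Rik, detected on 3 arrays, gave 0.48, opposite to its first.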

How the data were processed

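RNA of 9 gastric tumours was measured on Illumina mouse bead arrays. Per the file headers, BeadStudio 3.4.0 exported the intensity of each probe, averaged over beads and not normalized. A deposited detection column beside it holds a fraction from 0 to 1 under the heading of a p-value. It is highest for the brightest probes and was read as 1 minus p. The authors' separate table of normalized values was taken as log2, although its log base is not given in the sources used here, and it served as an alternative only. The tools lumi and Partek are listed in the submitters' processing notes, with no version or role.

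Signals were background-corrected by neqc (offset 16), which estimated the negative controls from detection, quantile normalized and log2 transformed in limma 3.58.1 (R 4.3.3). Probes detected at 0.95 or more on at least 3 of 9 arrays were kept, named through RefSeq symbols where they matched (13158 of 18925 by current and 3555 by older symbol), and the brightest stood for its gene. Of all 45281 probes, 9581 kept the name in the file. The main model set 6 cytokine arrays against 3 PBS arrays (lmFit, eBayes, two-sided), with Benjamini-Hochberg adjustment over 13001 genes. IL6 minus IL11 came from a model with 3 group means. Errors beside changes are standard errors. Array number limits the precision (median standard error 0.197).

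Each array is 1 mouse per the labels' protocols. Correlations between the deviations of same-numbered arrays of different groups ran from -0.133 to 0.338. Differently numbered arrays were not set beside them, so whether the numbers mark pairs was not settled. The main model did not use the numbers. Named genes were the 15 largest rises and falls called without overlap, up to 4 called members of each of 42 lists, the 3 called genes with the smallest p for IL6 minus IL11, and 29 fixed genes of the pathway, of which 1 is not reported here and 9 were called. The members, lists and rules were chosen with earlier results of these data known. The procedure was tested on simulated data in which a gene had the same spread on all arrays. The wider spread of the PBS arrays was therefore not covered. Alternatives changed the background correction, scaling, probe filter, probe choice, weights, block, threshold and arrays used. Python 3.11.15, pandas 2.3.3 and SciPy 1.17.1 made the tables.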

Additional observations from a re-analysis of the deposited data

Results flagged for a closer look

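One value stood apart in its group. Bnip5 had a log2 signal of 12.3 on IL6 replicate 2, while the nearest of the other 5 cytokine arrays had 11.22, a gap of 0.702 of the whole range of the 6 arrays. The limit for 6 values is 0.625, which chance passes in about 1 of 20 groups, and 48 groups were examined. Without that array the change of Bnip5 was 1.9, against 2.11 with it.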

How the results depend on the processing

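The direction of all 54 called genes was kept in every setting run in which they were tested (47 of 47 with the filter for detection on all arrays). The count of 54 was not stable. It was 124 with the authors' deposited values, 109 with no background correction, 107 with normexp and an offset of 50, 111 with probes detected on all arrays, 16 with array weights and 16 with group weights, 18 at an adjusted p under 0.01, 411 at 0.10, and 7 with PBS replicate 1 alone. Median scaling gave 1908 calls, 1893 higher (99.2% of calls, against 83.3% in the main setting), with the median of all genes shifted to 0.30. Leaving out 1 array gave from 23 calls (without PBS replicate 2) to 1635 (without PBS replicate 1). Counts moved by over 1.5 times also came without IL6 replicate 1 (24) or 3 (30) and without IL11 replicate 1 (26), 2 (27) or 3 (32). The fit with a replicate block had 32 calls (30 higher and 2 lower), 30 of them among the 54. Whether the replicate numbers mark pairs was not settled. IL6 minus IL11, with 0 calls, had 1 with the authors' values, 1 under median scaling, 2 with array weights, 1 with group weights and 1 with PBS replicate 1 alone, and 0 without any 1 array. Signs turned for Il6ra (0.05) under median scaling and for Egr1 (-0.17) and Il11ra1 (0.04) with PBS replicate 1 alone. Of 1240 comparisons of named genes with their main value, 998 kept direction and side of the threshold, 203 lost and 36 gained a call. The causes were not tested. Sizes were over 1.5 times smaller for 27 of the 54 genes with the authors' values (median rise 1.05, median fall -0.41), for 21 with no background correction and for 12 with an offset of 50. Of the 54, 47 were detected on all arrays, and signals near background limit the others.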
